A study of Mus musculus with 75 samples.

Results

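The 10 genes described here encode parts of elastic fibres and of the contractile apparatus of smooth muscle: Eln, Fbln5, Fbln2, Tagln, Acta2, Myh11, Cnn1, Myl9, Mylk and Myl4. They were given as a list, out of 37310 gene identifiers counted in the cortex and nuclei libraries. They were selected on earlier results of these mutant comparisons, without a recorded threshold, so their values there are given as a description. Counts of calls among them in these comparisons are printed beside the share of all genes called, and nothing is read from them.

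Messenger RNA was sequenced from C57BL/6 mice at postnatal day 21. The mutants carried altered forms of DNMT3A, an enzyme that methylates cytosines of DNA. Its gene gives rise to the longer DNMT3A1 and the shorter DNMT3A2. Cerebral cortex was taken from Dnmt3a1-/- mice (3 libraries), Dnmt3a2-/- mice (2 libraries) and Dnmt3a1_delta_N mice (3 libraries), whose name gives a deletion in the N-terminal part of the long isoform. Their controls were 8 wild type cortex libraries in 3 numbering series, of which the plain series (3 libraries) was set against Dnmt3a1-/-, the r series (2 libraries) against Dnmt3a2-/- and the n series (3 libraries) against Dnmt3a1_delta_N. Hippocampus was taken from Dnmt3a1-/- and wild type mice (3 libraries each). Cortical nuclei sorted with an antibody against the neuronal protein NeuN came from mice labelled Dnmt3a1-/- and from wild type mice (2 libraries each). Separate animals are not stated for libraries of the same group, and p-values therefore measure only the spread between libraries, which may be technical. The labels do not tie a wild type series to a mutant, and the match above follows the numbering.

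Elastic fibres give the walls of arteries their recoil. In them a core of crosslinked elastin, encoded by Eln, is laid onto fibrillin microfibrils with the help of fibulins, and lysyl oxidases form the crosslinks. In the brain the main elastic sheets lie in arteries, whose smooth muscle cells also make the contractile proteins. Contraction starts when myosin light chain kinase (Mylk) phosphorylates the regulatory light chain (Myl9) of smooth muscle myosin, whose heavy chain is Myh11, and myosin then pulls on filaments of alpha smooth muscle actin (Acta2). Transgelin (Tagln) and calponin 1 (Cnn1) are actin-binding proteins of the same cells. Many of these genes are switched on together by serum response factor, which binds a short motif called the CArG box. Myl4 encodes an essential myosin light chain best known from the atria of the heart and from embryonic muscle, and it is not a usual marker of arteries.

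Promoter sequences are shown for 4 members, 3 that hold a CArG-like motif and, for contrast, Myl4. A promoter entry was found for 7 of the 10 genes in the RefSeq tables of build GRCm38.p6. The CArG box was searched as CC, then 6 bases of A or T, then GG, and in a relaxed form in which at least 5 of the 6 inner bases are A or T, on both strands of a window from 250 bases before to 50 bases after the start. The strict box was present in 1.63% and the relaxed box in 9.98% of 32851 promoters, and every strict box is also a relaxed one. Each line gives the 200 bases before the start, 5′ to 3′ on the strand of the gene. Capitals mark relaxed CArG boxes in Myl9, Acta2 and Fbln2. In Myl4 they mark CG dinucleotides, which are among the sites that DNMT3A can methylate.
Myl9, chr2:156775264-156775463, + strand: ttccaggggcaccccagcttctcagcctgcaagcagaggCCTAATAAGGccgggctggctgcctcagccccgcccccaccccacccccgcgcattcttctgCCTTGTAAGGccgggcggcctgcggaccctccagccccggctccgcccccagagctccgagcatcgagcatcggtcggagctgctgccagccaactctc
Acta2, chr19:34255374-34255573, - strand: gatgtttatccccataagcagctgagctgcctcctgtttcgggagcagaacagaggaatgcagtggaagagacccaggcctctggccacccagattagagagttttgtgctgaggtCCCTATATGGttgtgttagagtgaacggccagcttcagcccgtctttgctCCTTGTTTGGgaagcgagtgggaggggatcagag
Fbln2, chr6:91212564-91212763, + strand: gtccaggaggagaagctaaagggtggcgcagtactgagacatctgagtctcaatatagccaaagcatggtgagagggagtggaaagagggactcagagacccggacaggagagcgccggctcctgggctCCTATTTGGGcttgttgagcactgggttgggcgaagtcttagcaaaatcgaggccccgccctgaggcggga
Myl4, chr11:104550463-104550662, + strand: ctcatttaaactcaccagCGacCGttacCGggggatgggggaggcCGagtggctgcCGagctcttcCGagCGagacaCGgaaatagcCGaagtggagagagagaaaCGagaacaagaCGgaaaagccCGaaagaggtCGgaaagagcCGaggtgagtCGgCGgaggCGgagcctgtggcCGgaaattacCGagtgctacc
Myl9 held the only strict box among the 7 genes, beginning 161 bases before the start, and a relaxed one 99 bases before it. Acta2 held relaxed boxes 84 and 34 bases before the start, and Fbln2 held one 71 bases before it. No box of either form was in the windows of Myl4, Cnn1, Mylk and Fbln5. The Myl4 window held 25 CG dinucleotides, against a median of 7 over all promoters, and 83.1% of promoters held as many or fewer. The first of 2 Fbln5 windows held 24 and the second 8, Myl9 held 20, Fbln2 held 10, Acta2 and Cnn1 held 6 each and Mylk held 4, so Myl4 was not alone among the 7 genes in having many. These matches describe the letters only, and neither binding nor methylation of these windows was analysed here.

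Gene counts came to 8.7 to 39.0 M (megacounts) per library. Dnmt3a, with both isoforms counted together, was measured at 73.2 to 80.7 CPM (counts scaled to a fixed total per library, 1 M) in Dnmt3a1-/- cortex, against 146 to 165 CPM in wild type, and fell by 1.02 ± 0.07 on the log2 scale (SE, adjusted p = 1.2e-05, edgeR quasi-likelihood test). In Dnmt3a1-/- hippocampus it fell by 1.04 ± 0.09 (adjusted p = 0.00011). Nuclei labelled Dnmt3a1-/- held 369 to 382 CPM, against 399 to 405 CPM in wild type nuclei, a log2 change of -0.10 ± 0.15 (adjusted p = 0.89), so these nuclei are named by their label only. A count over the whole gene does not check the deletion in Dnmt3a2-/- or Dnmt3a1_delta_N. Fold changes of the 10 genes below are on the log2 scale, mutant over wild type, each with the standard error (SE) of its fit, and a gene is called when its p-value, adjusted over all genes tested, is under 0.05.

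In Dnmt3a1_delta_N cortex all 10 genes had lower mean levels than in the n series of wild type cortex. Elastin stood furthest apart among the abundant ones. Eln was read at 31.3, 29.3 and 25.6 CPM in Dnmt3a1_delta_N, against 51.0, 54.0 and 77.0 CPM in wild type. The lowest wild type library was above the highest mutant one, and the log2 fold change was -1.06 ± 0.16. In bulk tissue, fewer arterial cells in a piece and less RNA per cell cannot be told apart. Fbln5, the fibulin that tethers elastin to cells and microfibrils, was read at 9.38, 13.3 and 11.8 CPM in Dnmt3a1_delta_N, against 18.9, 22.1 and 27.9 CPM in wild type. Its groups did not overlap either, with a fold change of -0.97 ± 0.17. Fbln2, a fibulin of basement membranes and elastic fibres, overlapped, at 11.9, 16.6 and 13.1 CPM in Dnmt3a1_delta_N, against 16.5, 17.8 and 14.2 CPM in wild type (-0.21 ± 0.13).

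The contractile genes other than the scarce Cnn1 lay lower by smaller amounts than Eln and Fbln5. Tagln was read at 14.1, 18.5 and 13.8 CPM in Dnmt3a1_delta_N, against 23.1, 24.4 and 23.8 CPM in wild type, and its wild type libraries lay within a narrow band above all mutant ones (-0.60 ± 0.10). Myh11 was read at 14.6, 19.4 and 13 CPM in Dnmt3a1_delta_N, against 19.8, 23.1 and 23.5 CPM in wild type. The gap between its groups was small, since mutant library 2 nearly reached wild type library 1 (-0.48 ± 0.13). Acta2 was read at 21.8, 34.6 and 24.5 CPM in Dnmt3a1_delta_N, against 33.9, 37.7 and 41.6 CPM in wild type, so mutant library 2 overlapped the wild type range (-0.47 ± 0.16). Cnn1 was scarce, with 7, 10 and 4 counts in Dnmt3a1_delta_N, against 32, 11 and 25 counts in wild type (-1.54 ± 0.45). Myl9 and Mylk overlapped between the groups, at -0.20 ± 0.16 and -0.17 ± 0.11. Meningeal fibroblast markers, 16 genes such as Dcn and Col1a1, summed to 240, 248 and 192 CPM in Dnmt3a1_delta_N, against 222, 265 and 239 CPM in wild type. Choroid plexus markers, 12 genes such as Ttr, summed to 961, 718 and 87 CPM in Dnmt3a1_delta_N, against 86, 418 and 36.9 CPM in wild type. The part of either in the result was not tested.

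Myl4 was lower in Dnmt3a1_delta_N as well, at 13.2, 12 and 16.2 CPM, against 25.9, 26.8 and 29.4 CPM in wild type, which is a fold change of -0.97 ± 0.12. The highest mutant library was far below the lowest wild type one. In all, 6 of the 10 genes had lower mutant libraries with no overlap (Eln, Fbln5, Tagln, Myh11, Cnn1 and Myl4), as had 7.07% of the 15881 genes tested. The median fold change of the 10 was -0.54, against 0.00 over all genes. The edgeR quasi-likelihood test called none of the 10, and 0% of all genes. At an unadjusted p under 0.05 it passed 7 of the 10 and 7.98% of all genes, and the DESeq2 Wald test called 3 (Eln, Tagln and Myl4) and 0.187% of the genes with a count. The genes were chosen on this comparison, so these counts are no test of it. With the library number as a block, which the pairing check favours for this comparison, the quasi-likelihood test called 4 lower, namely Fbln5 (-0.97 ± 0.09), Tagln (-0.61 ± 0.08), Myh11 (-0.49 ± 0.10) and Myl4 (-0.98 ± 0.08), and 0.542% of all genes lower. Without Dnmt3a1_delta_N library 3 it called Myl4 (-1.12 ± 0.10) and 0.0123% of all genes. Against all 8 wild type cortex libraries the fold change of Eln was -0.53, of Tagln -0.20 and of Acta2 -0.20, so these differences are smaller without the match to the n series. Beside the r series their direction turned by mean level, which was not tested. Dnmt3a1_delta_N was higher than the r series for Eln (28.7 against 25.6 CPM), Tagln (15.5 against 11.7 CPM) and Acta2 (26.9 against 22 CPM). Fbln2, Myh11, Myl9 and Mylk were higher too, and Fbln5, Cnn1 and Myl4 were lower.

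**Figure D1:**
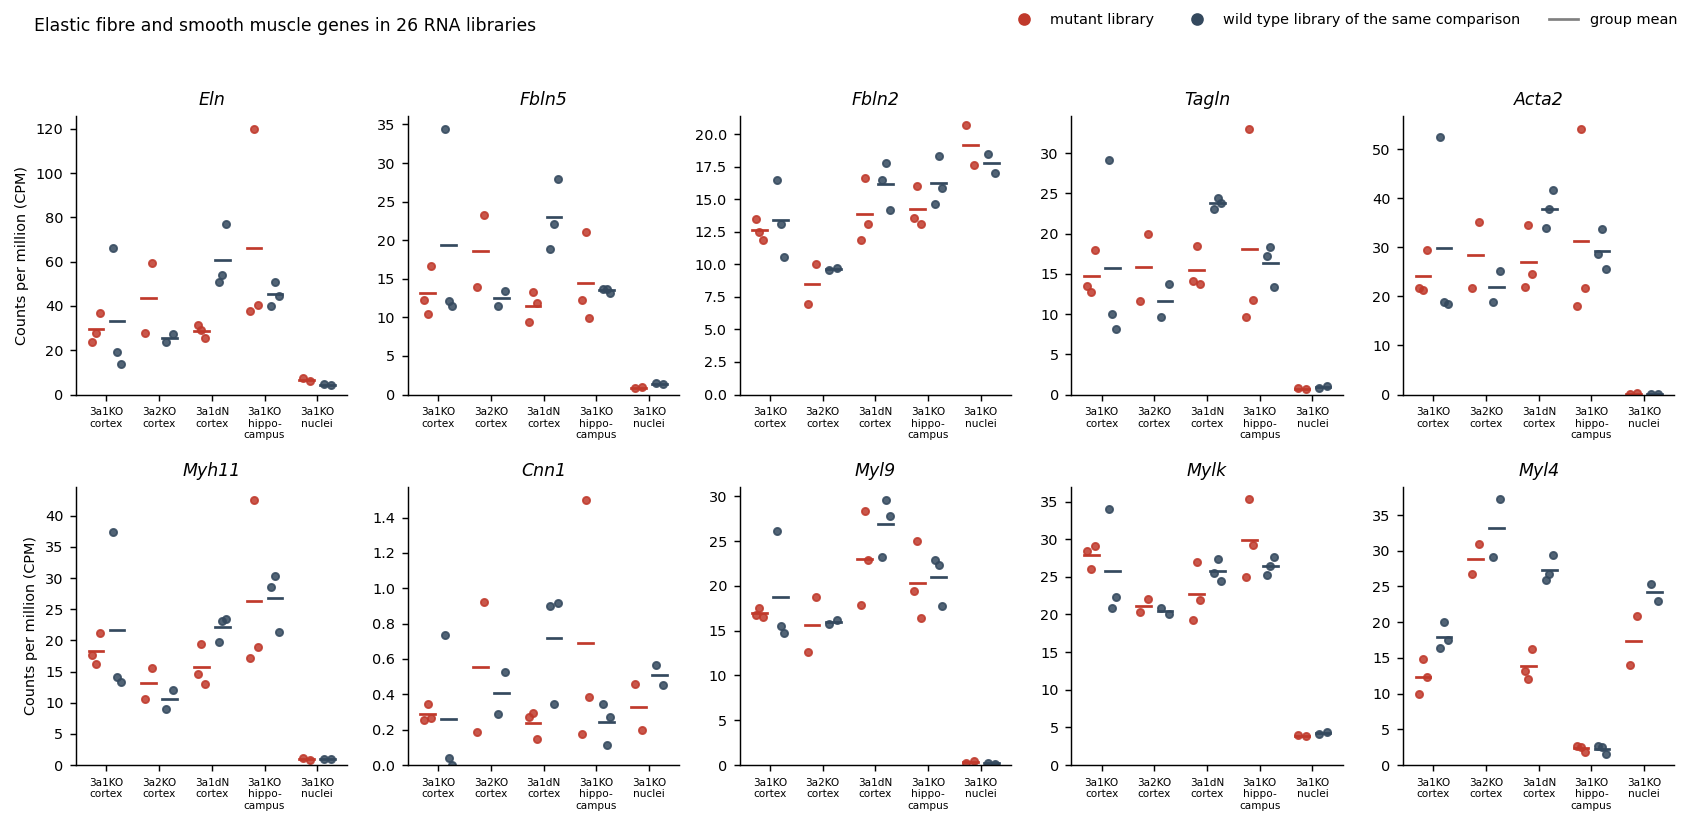
Each panel plots the level (CPM, linear axis from 0) of 1 gene in all 26 RNA libraries, with mutant libraries in red left of the wild type libraries of the same comparison in dark blue, and bars for group means. Axis labels 3a1KO, 3a2KO and 3a1dN stand for Dnmt3a1-/-, Dnmt3a2-/- and Dnmt3a1_delta_N. Single libraries stand high in the plain wild type series (Eln 66.1 CPM) and in Dnmt3a1-/- hippocampus (Eln 120 CPM), and Myl4 lies between 1.57 and 2.73 CPM in the 6 hippocampus libraries.

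In Dnmt3a1-/- cortex Myl4 was the only one of the 10 genes that edgeR or DESeq2 called, and the arterial genes turned on a single wild type library. Myl4 came to 9.88, 14.9 and 12.3 CPM in Dnmt3a1-/- cortex, against 16.4, 20 and 17.5 CPM in wild type. The groups did not overlap, and the fold change was -0.52 ± 0.13. It was 1 gene called lower among the 9 that passed the filter on low counts (Cnn1 did not), where 8.91% of all genes were called lower and 17.9% in either direction (31% with the library number as a block, where Myl4 was also called). Lower mutant libraries without overlap were seen for Myl4 alone of the 10, and for 17.7% of the genes tested. The call of Myl4 was lost without Dnmt3a1-/- library 3 or without wild type library 2, and the fold change stayed between -0.68 and -0.40 over the libraries left out in turn. Against all 8 wild type cortex libraries it was -0.99 ± 0.24 and was called, beside 18.9% of all genes. Its size therefore depends on the control series.

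Eln in Dnmt3a1-/- cortex came to 23.9, 28.0 and 36.9 CPM, against 66.1, 19.3 and 13.9 CPM in wild type. Wild type library 1 was higher than all 3 mutant libraries, and the other 2 were lower than all of them, so the fold change of -0.15 ± 0.70 averages over opposite positions. Acta2 showed the same order, at 21.7, 21.2 and 29.5 CPM in Dnmt3a1-/- cortex, against 52.4, 18.8 and 18.4 CPM in wild type (-0.30 ± 0.53). So did Tagln, at 13.5, 12.8 and 18.0 CPM in Dnmt3a1-/- cortex, against 29.2, 9.99 and 8.16 CPM in wild type (-0.09 ± 0.59). Myh11 (-0.24 ± 0.50), Fbln5 (-0.56 ± 0.56), Myl9 (-0.16 ± 0.20) and Mylk (0.11 ± 0.17) also had their highest library in wild type library 1. Fbln2 was read at 11.9 to 13.5 CPM in Dnmt3a1-/-, against 10.6 to 16.5 CPM in wild type (-0.10 ± 0.13). Cnn1 had 3, 9 and 7 counts in Dnmt3a1-/-, against 18, 1 and 0 counts in wild type.

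Without wild type library 1 the fold changes of Eln, Fbln5, Fbln2, Tagln, Acta2, Myh11 and Myl9 changed sign in Dnmt3a1-/- cortex, to 0.82, 0.14, 0.05, 0.68, 0.36, 0.39 and 0.14. Tagln (0.68 ± 0.16), Myh11 (0.39 ± 0.12) and Mylk (0.34 ± 0.10) were then called higher, where 6.99% of all genes were, and Myl4 was still called lower (-0.60 ± 0.14), as were 9.82% of all genes. The meningeal fibroblast markers summed to 311 to 332 CPM in Dnmt3a1-/- and to 442, 329 and 222 CPM in wild type, with the highest sum also in wild type library 1. Choroid plexus markers summed to 841 to 2050 CPM in Dnmt3a1-/-, against 129 to 771 CPM in wild type. The sums of 12 pericyte markers were 643 to 693 CPM, against 749 to 978 CPM in wild type, and neither pair of ranges overlapped. Among these 12, 6 had negative and 6 positive fold changes, with a median of -0.04, so the sum does not stand for each pericyte marker. Blood markers, 7 genes, summed to 338 to 522 CPM in Dnmt3a1-/-, against 523 to 831 CPM in wild type. The part of these cells in the result was not tested. The direction for Eln, Fbln5, Fbln2, Tagln, Acta2, Myh11 and Myl9 in this comparison therefore depends on 1 library of 6.

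In Dnmt3a2-/- cortex the arterial genes were higher in mutant library 2 than in mutant library 1. Eln was read at 27.7 and 59.5 CPM in Dnmt3a2-/-, against 23.8 and 27.4 CPM in wild type. Both mutant values lay above both wild type ones, the first by little, and the fold change was 0.75 ± 0.47. Fbln5 was read at 13.9 and 23.3 CPM in Dnmt3a2-/-, against 11.5 and 13.4 CPM in wild type (0.56 ± 0.22). These 2 were the only genes of the 10 without overlap, both higher, beside 14.8% of all genes. Acta2 was read at 21.6 and 35.2 CPM in Dnmt3a2-/-, against 18.8 and 25.2 CPM in wild type (0.35 ± 0.25), and Tagln at 11.6 and 20 CPM, against 9.64 and 13.7 CPM in wild type (0.42 ± 0.29). Myl4 was read at 26.7 and 30.9 CPM in Dnmt3a2-/-, against 29.1 and 37.2 CPM in wild type, and overlapped (-0.21 ± 0.13). Myh11 (0.30 ± 0.19), Cnn1 (0.31 ± 0.65), Mylk (0.04 ± 0.11), Myl9 (-0.05 ± 0.16) and Fbln2 (-0.20 ± 0.17) overlapped as well.

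The quasi-likelihood test called 0 of the 10 in Dnmt3a2-/- cortex and 0.00628% of all genes. At an unadjusted p under 0.05 it passed 1 (Fbln5) and 2.87% of all genes, and DESeq2 called 0 and 0.0303%. Mutant library 2 carried the higher values: without it the fold changes of Eln and Fbln5 were 0.12 and 0.17, and without mutant library 1 they were 1.20 and 0.88. Each of these fits leaves 1 mutant library, so only the fold change is given. Markers of the brain surface and the ventricles were also higher in mutant library 2. Choroid plexus markers summed to 19.8 and 1630 CPM in Dnmt3a2-/-, against 283 and 27.1 CPM in wild type, and meningeal fibroblast markers to 203 and 281 CPM, against 132 and 176 CPM in wild type. The part of either in the result was not tested.

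In Dnmt3a1-/- hippocampus the groups overlapped for each of the 10 genes, where 22.3% of all genes did not overlap, and mutant library 2 again stood alone. Eln levels were 37.6, 120 and 40.6 CPM in Dnmt3a1-/- hippocampus, against 40.2, 50.9 and 44.5 CPM in wild type (0.52 ± 0.56). Acta2 levels were 18.1, 54.0 and 21.7 CPM in Dnmt3a1-/- hippocampus, against 28.6, 33.7 and 25.5 CPM in wild type (0.07 ± 0.48), and Tagln at 9.68, 33.0 and 11.7 CPM, against 17.2, 18.3 and 13.4 CPM (0.13 ± 0.55). In each of the 3, mutant library 2 was above every wild type library, and for Acta2 and Tagln the other 2 mutant libraries were below every one. Without that library the fold changes of Eln, Tagln, Acta2 and Myh11 were -0.23, -0.60, -0.57 and -0.57, and none was called. Its choroid plexus markers summed to 1890 CPM, against 567 and 62.9 CPM in the other mutant libraries and 81.9 to 114 CPM in wild type. Pericyte markers summed to 509 to 584 CPM in Dnmt3a1-/- hippocampus, against 604 to 698 CPM in wild type, without overlap. Among these 12 genes, 8 had negative and 4 positive fold changes, with a median of -0.08, against 0.01 over all genes. The part of either was not tested.

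Of the 9 genes that passed the filter in hippocampus, the quasi-likelihood test called 0, where 2.52% of all genes were called. At an unadjusted p under 0.05 it passed 0 of the 9 and 18% of all genes, and DESeq2 called 0 and 1.91%. Fbln5, Fbln2, Myh11, Myl9 and Mylk had fold changes of 0.06 ± 0.24, -0.23 ± 0.12, -0.05 ± 0.40, -0.08 ± 0.15 and 0.16 ± 0.12. Myl4 was scarce in this tissue, with 2.73, 2.46 and 1.89 CPM in Dnmt3a1-/- hippocampus, against 2.65, 2.58 and 1.57 CPM in wild type (0.03 ± 0.26). The cortex effect minus the hippocampus effect of Dnmt3a1-/- was -0.54 ± 0.29 for Myl4 and was not called, so its lower level in cortex was not shown to differ from hippocampus.

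In nuclei labelled Dnmt3a1-/- Acta2 and Myl9 were near the limit of counting, and the other 8 genes passed the filter. Myl4 was read at 14 and 20.8 CPM in nuclei labelled Dnmt3a1-/-, against 25.4 and 23.0 CPM in wild type nuclei. Both labelled libraries were lower, with a fold change of -0.48 ± 0.19. Eln was read at 7.38 and 6.13 CPM in the labelled nuclei, against 4.63 and 4.41 CPM in wild type nuclei, and both labelled libraries were higher (0.59 ± 0.20). Fbln5 had 33 and 23 counts in the labelled nuclei, against 51 and 48 counts in wild type nuclei (-0.68 ± 0.33). Tagln and Mylk were lower in both labelled libraries (-0.37 ± 0.37 and -0.12 ± 0.22), while Fbln2, Myh11 and Cnn1 overlapped (0.11 ± 0.16, 0.11 ± 0.34 and -0.54 ± 0.50). Acta2, with 1 and 6 counts in the labelled nuclei, against 5 and 2 counts in wild type nuclei, and Myl9, with 9 and 12 counts, against 8 and 6 counts, did not pass the filter.

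Of the 8 genes tested in nuclei the quasi-likelihood test called 0, beside 0.246% of all genes. It passed 2 (Eln and Myl4) at an unadjusted p under 0.05, beside 8.98% of all genes, and DESeq2 called 0, beside 0.289%. Over all 10 genes, 4 were lower (Fbln5, Tagln, Mylk and Myl4) and 2 higher (Eln and Myl9) with no overlap, and 19.6% and 18.9% of the genes tested were so. Over the libraries left out in turn, the fold change of Myl4 ran from -0.79 to -0.21. A fit without 1 labelled library leaves 1 in that group, so the spread of the group is not measured. Nothing is read from a call in such a fit. Without labelled library 2, Myl4 was called, at -0.79 ± 0.21, with 2.23% of all genes.

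**Figure D2:**
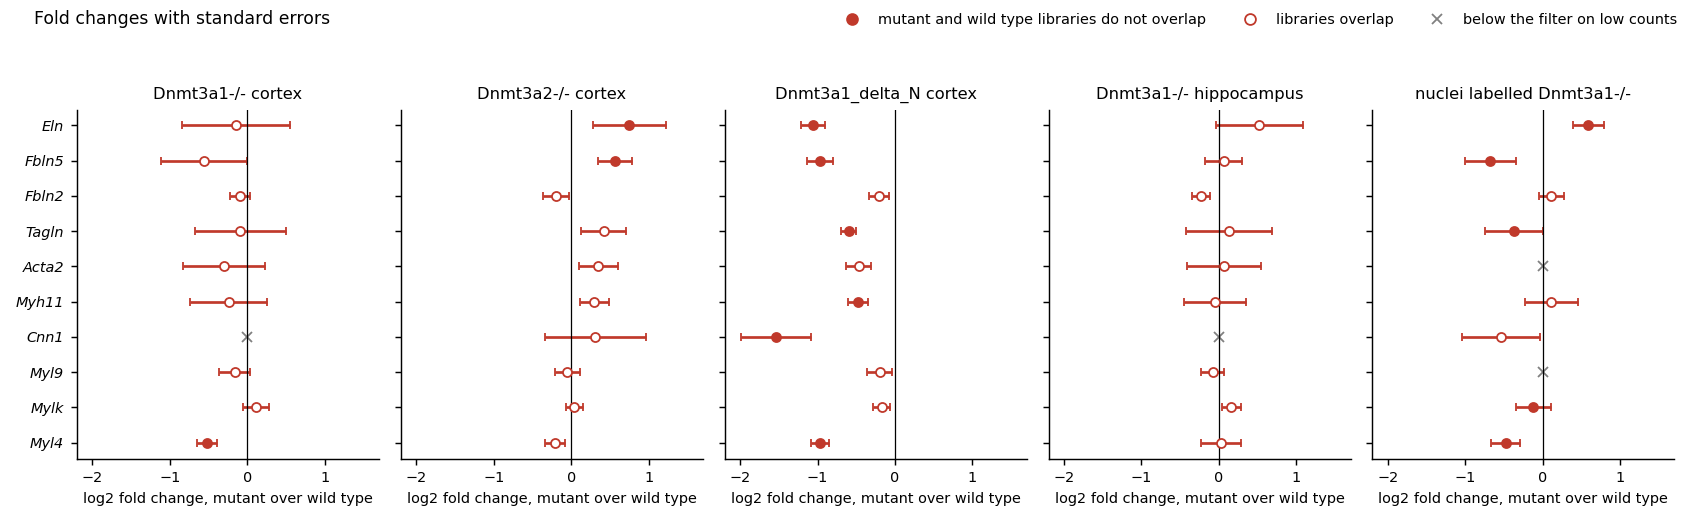
Points give the log2 fold change of mutant over wild type for each gene in the 5 comparisons, with the standard error as bars; filled points mark genes whose mutant and wild type libraries do not overlap, and crosses mark genes that did not pass the filter on low counts. In Dnmt3a1_delta_N cortex all 10 points lie below 0, from -1.54 (Cnn1) to -0.17 (Mylk), and in Dnmt3a1-/- cortex the bars of the arterial genes are wide, while that of Myl4 is narrow.

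The effects of Dnmt3a1-/- and Dnmt3a1_delta_N in cortex, which have separate control series, were compared in 1 model. The difference, Dnmt3a1-/- minus Dnmt3a1_delta_N, was 0.46 ± 0.20 for Myl4, 0.90 ± 0.73 for Eln and 0.50 ± 0.59 for Tagln. These differences use the comparisons that chose the genes and are a description too. None of the 10 was called by edgeR, beside 0.103% of all genes, and 1 (Myl4) passed at an unadjusted p under 0.05, beside 11.4%. Without wild type library 1 of the plain series the difference was called for Tagln alone, at 1.29 ± 0.21, beside 0.114% of all genes. In the test of the cortex effect minus the hippocampus effect of Dnmt3a1-/-, edgeR called 0 of the 9 genes tested and 0% of all genes, and 0 of the 9 passed at an unadjusted p under 0.05, beside 5.03% of all genes. DESeq2 was not run for these differences.

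**Figure D3:**
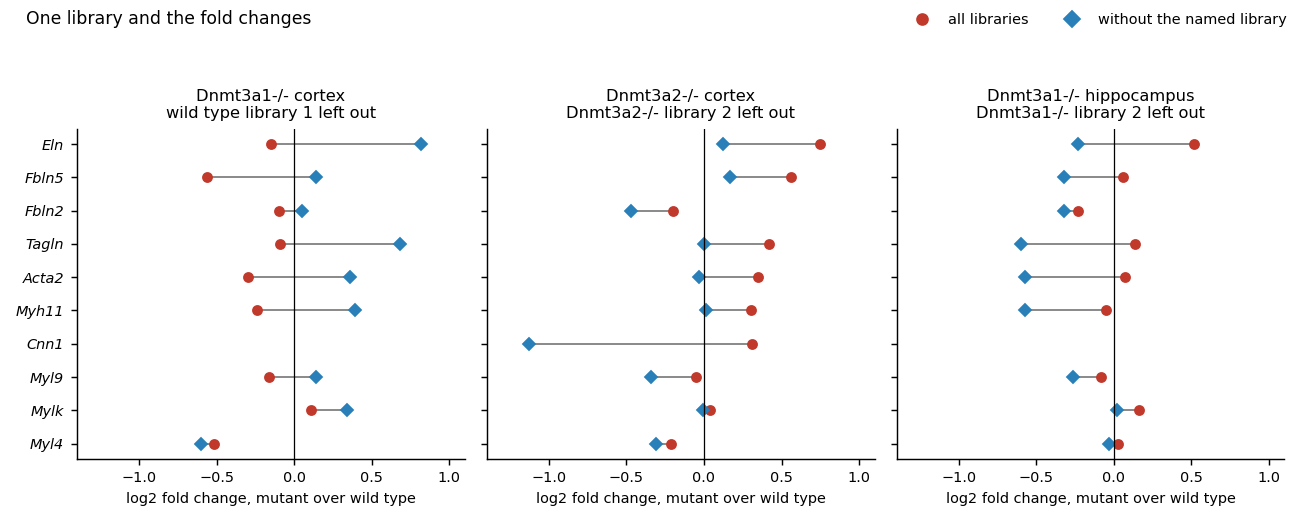
Red circles give the log2 fold change of mutant over wild type with all libraries, and blue diamonds give it without the library named above each panel. In Dnmt3a1-/- cortex Eln lies at -0.15 with all libraries and at 0.82 without wild type library 1, and in hippocampus Tagln lies at 0.13 and, without mutant library 2, at -0.60, while Myl4 hardly moves.

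The 3 wild type cortex series, which share tissue, age and strain, were compared with each other, since each serves as control of another mutant. Myl4 differed by series. It averaged 33.1 ± 5.76 CPM in the r series (SD, n = 2) and 27.4 ± 1.81 CPM in the n series (SD, n = 3), against 18.0 ± 1.83 CPM in the plain series (SD, n = 3). The r series was higher than the plain one by 0.85 ± 0.11 on the log2 scale (adjusted p = 4.4e-05, edgeR, 2 of 2 libraries above all 3) and the n series by 0.56 ± 0.10 (adjusted p = 0.00077, 3 of 3 above all 3). Fbln2 was lower in the r than in the plain series by 0.52 on the log2 scale (-0.52 ± 0.15, adjusted p = 0.021) and higher in the n than in the r series (0.74 ± 0.15, adjusted p = 0.0041). EdgeR called the other 8 genes between no pair of series, where 31.7%, 22.8% and 25.6% of all genes were called for r against plain, n against plain and n against r. DESeq2 also called Myl9 for n against r. Without the low-count filter edgeR called 9, 6 and 9 of the 10 in these comparisons, beside 24.3%, 18.9% and 18.9% of all genes.

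The calls between series also changed without wild type library 1 of the plain series. All series were fitted in 1 model with a shared estimate of the spread, so leaving out this library also bears on the calls between n and r, to which it does not belong. Without it, 9 of the 10 genes were called between the n and plain series, among them Tagln (1.33 ± 0.13, adjusted p = 5.8e-06), Eln (1.81 ± 0.26, adjusted p = 0.0095) and Acta2 (0.97 ± 0.12, adjusted p = 0.0001), beside 19.5% of all genes. Between the n and r series 9 of the 10 were then called as well, beside 28.1% of all genes, with Tagln at 1.02 ± 0.12 (adjusted p = 0.00014) and Myh11 at 1.06 ± 0.12 (adjusted p = 6.6e-05). Of these calls, Myl4 between n and r was the only one with the n series lower (-0.28 ± 0.10, adjusted p = 0.043).

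Across wild type tissues the arterial genes were low in sorted neuron nuclei. The comparison with cortex sets nuclear RNA against RNA of whole tissue, so sorting and compartment cannot be told apart. Reads in no annotated feature were 29.08% and 27.99% of uniquely placed reads in wild type nuclei, against 9.338% to 10.16% in wild type cortex. Of the 10 genes, 8 were lower and 0 higher in wild type nuclei than in wild type cortex (mean of the 3 series), beside 42.9% of all genes in each direction and 85.8% in either. Acta2 had 5 and 2 counts in the 2 nuclei libraries, which is 0.332% of its mean CPM in cortex, and its log2 difference was the widest of the 10 (-8.38 ± 0.98, adjusted p = 0.00017, edgeR). Myl9 was at 0.967% of its cortex level (-6.87 ± 0.38, adjusted p = 1.6e-08). The share of the cortex level was 5.24% for Myh11, 5.39% for Tagln and 7.68% for Fbln5, and their log2 differences were -4.42 ± 0.62, -4.40 ± 0.70 and -3.90 ± 0.63 (adjusted p = 0.00041, 0.0009 and 0.00094). Eln kept 11.4% (-3.29 ± 0.74, adjusted p = 0.0052) and Mylk 17.6% (-2.74 ± 0.18, adjusted p = 5.7e-09). As a measure of other vascular cells in the same sort, 12 pericyte markers summed to 2.22% and 12 endothelial markers to 2.89% of their cortex level, and each of these 24 genes was called lower.

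Fbln2 and Myl4 were read in nuclei at about their level in whole cortex. Fbln2 was read at 18.5 and 17.0 CPM in wild type nuclei and averaged 13.1 CPM over the cortex series, a difference of 0.23 ± 0.12 (adjusted p = 0.091). It was higher in nuclei without wild type library 1 of the plain series (0.28 ± 0.10, adjusted p = 0.017, 85.4% of all genes called). Myl4 was at 92.5% of its cortex level and was called lower by a small amount (-0.31 ± 0.10, adjusted p = 0.0069). Against the plain series alone the difference was 0.16 (adjusted p = 0.19, edgeR), so its direction depends on the series. As a sum, 8 neuron markers were at 69.2% of their cortex level, but their median log2 difference was 0.03. Single neuron markers ran from 37.1% (Camk2a) to 180% (Neurod6) of their cortex level. Cnn1, with 20 and 16 counts in nuclei, did not pass the test (-0.01 ± 0.76, adjusted p = 0.99).

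Between hippocampus and cortex Myl4 showed by far the widest difference of the 10. It averaged 2.27 ± 0.605 CPM in wild type hippocampus (SD, n = 3), against 18.0 to 33.1 CPM as means of the wild type cortex series, and was lower in 3 of 3 hippocampus libraries (log2 difference -3.56 ± 0.15, adjusted p = 2e-11, edgeR). Fbln2 was higher (0.30 ± 0.12, adjusted p = 0.038), but this call was lost or turned with the controls: the difference was 0.21 against the plain series alone and -0.02 against the n series alone. It was also lost without any 1 of hippocampus libraries 2 and 3, n library 3, plain library 2 and r library 2, with the difference between 0.23 and 0.38 over the libraries left out in turn. The other 8 were not called, with Eln at 0.23 ± 0.46 (adjusted p = 0.70), Acta2 at -0.05 ± 0.35 (adjusted p = 0.92) and Myh11 at 0.58 ± 0.33 (adjusted p = 0.18). Over all genes 28.3% were lower, 27.3% higher and 55.6% either. Without wild type library 1 of the plain series, Eln (0.58 ± 0.15, adjusted p = 0.0082), Myh11 (0.81 ± 0.11, adjusted p = 2.5e-05) and Mylk (0.19 ± 0.07, adjusted p = 0.023) were also called higher in hippocampus, beside 54.7% of all genes in either direction.

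**Figure D4:**
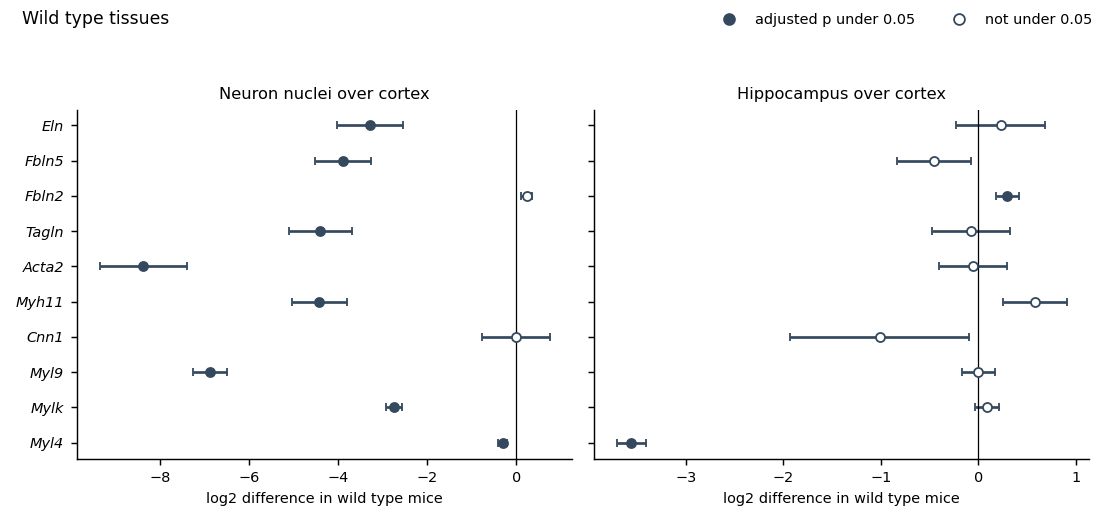
Points give the log2 difference with its standard error between wild type neuron nuclei and wild type cortex (left) and between wild type hippocampus and wild type cortex (right), on separate scales, with filled points at an adjusted p under 0.05. In nuclei Acta2 lies lowest at -8.38, with Fbln2, Cnn1 and Myl4 near 0, and in hippocampus Myl4 stands alone at -3.56.

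Ordered by group mean, Myl4 ran from wild type cortex of the r series (33.1 CPM) over Dnmt3a2-/- cortex (28.8), the n series (27.4), wild type nuclei (24.2), the plain series (18.0), nuclei labelled Dnmt3a1-/- (17.4), Dnmt3a1_delta_N cortex (13.8) and Dnmt3a1-/- cortex (12.4) to Dnmt3a1-/- hippocampus (2.36) and wild type hippocampus (2.27). Of the neighbours in this order, the libraries overlapped except between the n series and wild type nuclei, between wild type nuclei and the plain series, and between Dnmt3a1-/- cortex and Dnmt3a1-/- hippocampus. Eln was highest in Dnmt3a1-/- hippocampus (66.2 ± 46.9 CPM, SD, n = 3) and in the n series (60.7 ± 14.2 CPM, SD, n = 3), and its spread within groups was wider than most steps between them.

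From library to library the arterial genes moved together, and Myl4 did not move with them. Each gene's log2(CPM + 0.5) was taken as a deviation from the mean of its group, and these deviations were correlated over the 26 libraries as a description, since the libraries share dissections and depth. Eln, Fbln5, Tagln, Acta2 and Myh11 correlated with each other at r = 0.89 to 0.98, and at 0.78 to 0.96 without the 2 highest libraries (wild type plain 1 and Dnmt3a1-/- hippocampus 2). With these 5 genes, Cnn1 correlated at 0.74 to 0.86, Myl9 at 0.70 to 0.84, Mylk at 0.73 to 0.83 and Fbln2 at 0.62 to 0.68. Myl4 correlated with them at -0.01 to 0.11.

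**Figure D5:**
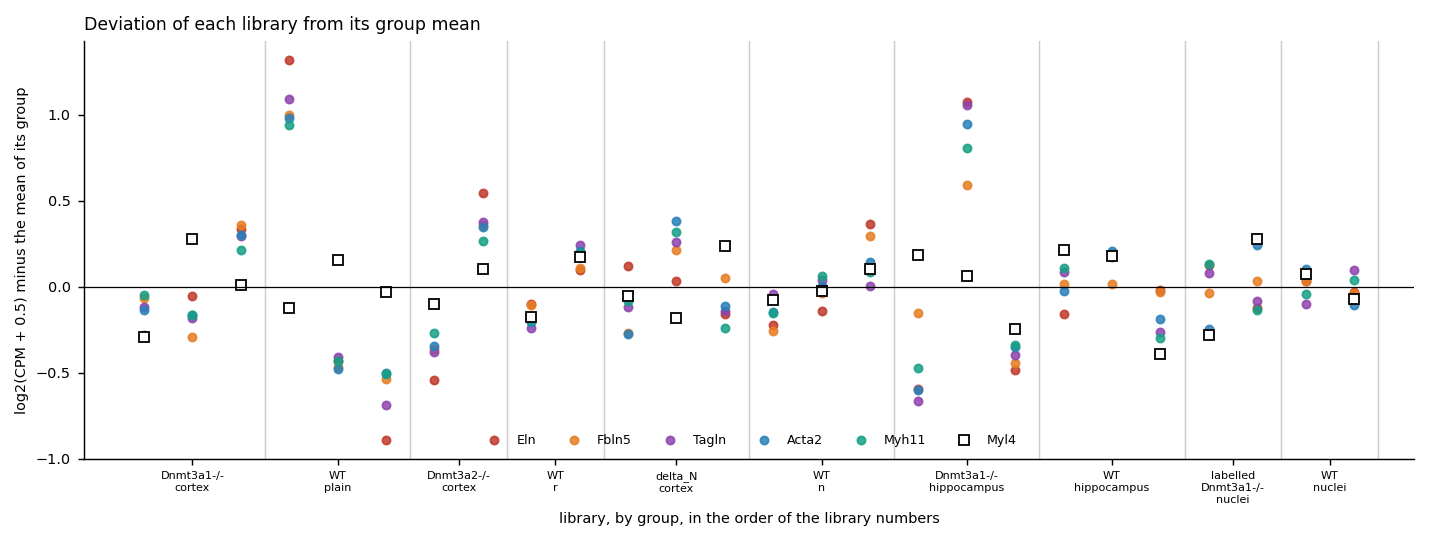
Each column is 1 of the 26 RNA libraries, and points give the log2(CPM + 0.5) of Eln, Fbln5, Tagln, Acta2, Myh11 (coloured circles) and Myl4 (open squares) minus the mean of the library's group. The coloured circles sit together in most tissue libraries, between 0.939 and 1.321 in wild type plain library 1 and between 0.594 and 1.074 in Dnmt3a1-/- hippocampus library 2, and the squares do not follow them.

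By the same measure, over all genes with a mean of at least 1 CPM, the 5 genes most like Acta2 included Rasl12 (r = 0.923), Tpm2 (0.903), Des (0.889) and Bmx (0.875). Tpm2 encodes a tropomyosin and Des the intermediate filament desmin of muscle. Those most like Eln included Mgp (0.869), Tpm2 (0.847), Ptgis (0.843) and Des (0.833), where Mgp encodes the matrix Gla protein that restrains calcification of arteries and Ptgis makes prostacyclin. Those most like Myl4 were Fam131c (0.794), Shisa4 (0.78), Gsto1 (0.728), Cyp27a1 (0.722) and Pnoc (0.698), and no gene was on both the Acta2 and the Myl4 list.

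Other genes of the elastic fibre, a list of 24, were called by edgeR in Dnmt3a1-/- cortex, where 4 of 23 tested rose and 1 fell, beside 8.95% and 8.91% of all genes, and in Dnmt3a1-/- hippocampus, where 1 of 22 fell, beside 2.52% called in either direction. DESeq2 called 5 in cortex, beside 10.2% of the genes with a count, and 3 in hippocampus (Vcan, Fbn1 and Adamtsl2), beside 1.91%. Fbn1, the main fibrillin of microfibrils, averaged 14.2 ± 0.946 CPM in Dnmt3a1-/- and 8.56 ± 1.81 CPM in wild type (SD, n = 3 each) and rose by 0.71 ± 0.13 (adjusted p = 0.0031). Adamts10, a protease-like protein of microfibrils, rose by 0.46 ± 0.09 and the proteoglycan versican (Vcan) by 0.45 ± 0.12. Adamtsl2, which binds microfibrils, averaged 7.90 ± 0.579 CPM in Dnmt3a1-/- and 12.9 ± 1.18 CPM in wild type (SD, n = 3 each) and fell by 0.72 on the log2 scale (-0.72 ± 0.11). It also fell in Dnmt3a1-/- hippocampus, by 0.77 on the log2 scale (-0.77 ± 0.18), where 8 of 22 tested passed at an unadjusted p under 0.05, beside 18% of all genes. Lox, the enzyme that crosslinks elastin, averaged 2.27 ± 0.524 CPM in Dnmt3a1_delta_N and 3.55 ± 0.586 CPM in wild type (SD, n = 3 each), -0.63 ± 0.20, and did not pass the test. Neither edgeR nor DESeq2 called any of the list in Dnmt3a1_delta_N, Dnmt3a2-/- or nuclei labelled Dnmt3a1-/- (22, 23 and 19 tested, of which 1, 2 and 1 passed at an unadjusted p under 0.05). Its median fold change was 0.06 in Dnmt3a1-/- cortex, 0.19 in Dnmt3a2-/- and -0.06 in Dnmt3a1_delta_N, against 0.01, 0.00 and 0.00 over all genes.

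Other smooth muscle genes, a list of 28, had 2 genes that rose and 2 that fell of 28 tested in Dnmt3a1-/- cortex by edgeR, a share close to the 8.95% and 8.91% of all genes. With the library number as a block, both lists together had 13 genes called of 51 tested (8 higher and 5 lower), beside 15.1% higher and 16% lower of all genes, and without it 9 (6 higher and 3 lower). Olfr558, an odorant receptor gene, was read at 0.305 to 0.986 CPM in Dnmt3a1-/- and at 1.27 to 2.54 CPM in wild type and fell strongly (log2 fold change -1.60 ± 0.39). Tpm1, a tropomyosin made in many cell types, fell by 0.23 on the log2 scale (-0.23 ± 0.07). Csrp1 (0.24 ± 0.06) and Ppp1r14a, an inhibitor of myosin phosphatase (0.52 ± 0.14), rose. In Dnmt3a1-/- hippocampus Olfr558 fell by 1.69 on the log2 scale (-1.69 ± 0.39) and the actin crosslinker Flna rose by 0.53 ± 0.10. These were the 2 genes of 27 tested that edgeR called there, beside 2.52% of all genes. DESeq2 called 4 of the list in Dnmt3a1-/- cortex, beside 10.2% of the genes with a count, and 3 in Dnmt3a1-/- hippocampus, beside 1.91%. In Dnmt3a1_delta_N cortex neither tool called any, 2 passed at an unadjusted p under 0.05, and 21 of 27 tested had negative fold changes with a median of -0.07, against 0.00 over all genes. Regulators of the contractile programme, 18 genes among them Srf, Myocd and Notch3, were called in none of the 5 comparisons by edgeR or DESeq2, with 4 of 87 tests at an unadjusted p under 0.05. The same held for 12 other myosin light chains and light chain kinases, with 2 of 33 tests. Over all genes the share at an unadjusted p under 0.05 was 32.4% in Dnmt3a1-/- cortex, 2.87% in Dnmt3a2-/- cortex, 7.98% in Dnmt3a1_delta_N cortex, 18% in Dnmt3a1-/- hippocampus and 8.98% in nuclei labelled Dnmt3a1-/-.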

How the data were processed

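Reads of 26 RNA libraries (75 samples in the series, 49 not analysed here) were aligned with STAR 2.5.4a to mm9 and counted per gene with HTSeq 0.11.0, per the submitters' processing notes, and the deposited values are these raw gene counts. The library kit was stranded, per the labels' protocols; the strand setting and annotation release are not given in the sources used here. Lines that name no gene held 21.14% to 36.97% of the counts and were left out. Levels are CPM, counts divided by the library's total of gene counts and multiplied by 1 M, which depend on all other genes in a library and are not scaled by gene length, so they are not compared between genes.

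Each comparison was fitted across all genes with edgeR 4.0.16 in R 4.3.3 (low-count filter, TMM scaling, robust quasi-likelihood F-test, Benjamini-Hochberg adjustment), with calls made where the adjusted p was under 0.05. The scripts were tested on simulated data. Alternatives were DESeq2 1.42.0, RLE scaling, no filter, all 8 wild type cortex libraries, single wild type series, a library-number block and leaving out each library. The members and gene lists were chosen with earlier results of these data known. All 10 members are named, with up to 4 called genes per list, or the 2 of smallest p where none was called, and the 5 genes most alike.

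Whether equal numbers pair libraries was checked from deviations from group means. Same-number correlations were 0.237, 0.376 and 0.184 for Dnmt3a1-/- cortex and 0.373, 0.24 and 0.419 for Dnmt3a1_delta_N. Numbers were therefore taken to pair these libraries, which comes from the data, not the labels. The main fits had no block, and values with the library number as a block are named as such. One gene among those most like Acta2 and Eln is not reported here.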

Additional observations from a re-analysis of the deposited data

How the results depend on the processing

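Shares are of all genes tested, and tools and filters test different numbers of genes. With the replicate block, called shares were 31% in Dnmt3a1-/- cortex (17.9% without it), 0.345% in Dnmt3a2-/- (0.00628%; 1 member, Eln), 0.749% in Dnmt3a1_delta_N (0%; 4 members), 1.56% in hippocampus (2.52%) and 4.67% in nuclei labelled Dnmt3a1-/- (0.246%; 1 member, Myl4, and 3 pathway genes, counted over the 2 lists of other elastic fibre and smooth muscle genes). The block changed no other member's call. Same-number correlations were -0.056, 0.272 and 0.026 in hippocampus, so those libraries share only a number. They were 0.111 in Dnmt3a2-/- and 0.297 in nuclei, where 2 libraries per group are too few to decide whether numbers pair them. DESeq2 called 10.2% in Dnmt3a1-/- cortex, 0.0303% in Dnmt3a2-/-, 0.187% in Dnmt3a1_delta_N (3 members) and 36.6% between wild type hippocampus and cortex (55.6% by edgeR). It called 595 genes in hippocampus (1.91%, with 6 pathway genes) and 69 in nuclei (0.289%), where edgeR called 396 (2.52%, with 3 pathway genes) and 39 (0.246%). Without the low-count filter the shares were 0.277% in Dnmt3a2-/- (1 member, Fbln5), 0.0706% in Dnmt3a1_delta_N (2 members) and 1.02% in nuclei. Hippocampus then had 1039 genes called, 3.33% of all genes, with 7 of 52 pathway genes. Dnmt3a1-/- cortex had 15 of 52 pathway genes, beside 15% of all genes (9 of 51 with the filter, beside 17.9%). Over the 3 pairs of wild type series together 10 members were called, beside 18.9% to 24.3% of all genes per pair. With the filter 2 were called, beside 22.8% to 31.7%. Against all 8 wild type libraries 0.012% were called in Dnmt3a2-/-.

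Leaving out each library gave 9.86% to 16.8% of genes, 0 to 4 members and 4 to 9 pathway genes in Dnmt3a1-/- cortex; 0.155% to 0.848%, 0 to 2 and 0 to 1 in Dnmt3a2-/-; 0% to 0.0123% and 0 to 1 members in Dnmt3a1_delta_N; 0.539% to 4.89% and 0 to 5 pathway genes in hippocampus; and 0.0245% to 2.23% and 0 to 1 members in labelled nuclei. In Dnmt3a2-/- and labelled nuclei each of these fits leaves 1 library in a group, so nothing is read from their calls. Leaving out cortex libraries in the wild type comparisons, and any library in the differences of effects, was chosen after seeing the data. Members called were then up to 10 over the 3 pairs of series, beside 16.5% to 33% of all genes per pair with the r libraries kept. For hippocampus against cortex they were 1 to 5, beside 48% to 55.2% of all genes. Against the n or the plain series alone 1 was called, beside 49.9% and 47%. For the difference between Dnmt3a1-/- and Dnmt3a1_delta_N they were 0 to 1, beside 0.024% to 1.1%. Wild type differences from cortex that turned over left-out libraries ranged from -0.15 to 0.19 (Acta2), -1.26 to 0.12 (Cnn1), -0.05 to 0.13 (Myl9) and -0.17 to 0.21 (Tagln) in hippocampus and from -0.21 to 1.12 (Cnn1) in nuclei.

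Other turned differences in nuclei were Fbln2 -0.10 against the n series alone, Myl4 0.16 against plain alone, and Cnn1 0.63 against plain alone, 0.06 against r alone and 0.01 by DESeq2. In hippocampus they were Eln -0.46, Fbln2 -0.02 and Mylk -0.002 against n alone; Fbln5 0.07, Tagln 0.42, Acta2 0.36 and Myl9 0.33 against r alone; Mylk -0.04 and Myl9 0.07 against plain alone; and Myl9 0.02 by DESeq2 and by RLE scaling and 0.0007 without the filter. The causes were not tested. Groups of 2 or 3 libraries, and counts under 40 per library for Cnn1, limit what could be detected.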
